A study of Mesostigma viride with 16 samples.

Results

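The genes described here are the *Mesostigma viride* homologs of chromatin and other epigenetic genes, taken by gene identifier from a supplementary table of the study that names Arabidopsis genes of epigenetic processes and their *M. viride* homologs. That table held 50 *M. viride* genes. 12 of them, named one by one, and 1 gene that the study also lists as a transcription factor were left out, which left 37 genes. The files hold 24431 genes. Values were found for 35 of the 37, and 32 reached the level needed for a test (at least 0.5 FPKM in at least 2 libraries, where FPKM is the number of fragments of a gene scaled to its transcript length and to the mapped fragments of the library). The 2 genes without values, Mv17569-RA (table name HAG1) and Mv15336-RA (FPA), are not analysed here. Several Arabidopsis names often share a block of the table, so an *M. viride* gene is called below by the block it stands in and not by 1 ortholog.

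*M. viride* strain NIES-296 is a unicellular streptophyte green alga. Cultures 24 days old in medium C at pH 7.5, 23 °C and 50 µmol photons m-2 s-1, with 10 h of light and 14 h of dark, received 1 change for 24 h each: Darkness (no light), High light (400 µmol photons m-2 s-1), Cold (12 °C), High temperature (32 °C), Low pH (pH 6.0, set with Tris-HCl) or High pH (pH 9.0, set with NaOH). Control 1 was untreated, and Control 2 received the same volume of medium C as the pH treatments. There were 15 libraries, 2 for each condition except Control 1, for which only replicate 2 was used here. The study calls the replicates biological, and with so few the p-values below measure the spread between these samples only.

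In plants, histone-modifying enzymes add or remove acetyl, methyl and ubiquitin groups on histone tails, and these marks go with open or silent chromatin. Argonaute proteins carry small RNAs to matching transcripts or to loci that are to be silenced, and RNA-dependent RNA polymerases make the double-stranded precursors of some of these small RNAs. Many of the Arabidopsis genes were found through flowering time, a trait that a unicellular alga lacks, so the names give homology and not function in *M. viride*.

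The names were not checked against sequence, and the expression values can only show whether the genes were transcribed. Of the 35 genes with values, 32 reached the level for a test, with mean levels over the 15 libraries from 2.34 FPKM upwards and a median of 8.41 FPKM. In rank by mean level, 20 of these 32 stood above the middle of the 14297 genes tested. Mv05968-RA of the Argonaute block lay between 0 and 0.232 FPKM, with 1 library at 0. Mv10979-RA of the RDR2/SMD1 block reached at most 0.0201 FPKM and was listed at 0 in 11 libraries. Mv12797-RA (DRL1/KTI12, named for a tRNA modification factor) was listed at 0 in all 15. For these 3 genes no change could be measured.

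Both High temperature libraries stood apart from the other 13. The median level of the genes tested was 2.57 to 2.98 FPKM in them and 7.14 to 8.58 FPKM in the others, while the FPKM of all genes summed to 578174 to 683704 over the 15 libraries. The summed level of the epigenetic genes was 270 to 289 FPKM at High temperature and 487 to 562 FPKM elsewhere. Replicates of a condition correlated at 0.984 to 0.987 across genes, which are not independent of each other. FPKM is a share of a library, and less RNA per cell, or a smaller part of the culture expressing a gene, cannot be told apart in it.

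Among the 13 libraries without High temperature most of the 32 genes kept varied little. The highest value was under 2 times the lowest for 24 of the 32 genes (75.0%), against 47.3% of all genes tested, and the median ratio of highest to lowest was 1.63, against 2.04. The sets were not matched for mean level, and the genes kept were chosen with earlier results of these data known. These shares are thus no test of whether epigenetic genes vary less than others. A gene with a library at 0 cannot count as under 2 times, and 31 of the 32 and 14015 of the 14297 had none at 0. In both High temperature libraries 27 of the 32 (84.4%) lay below all other libraries, where 59.6% of all genes tested did, and 1 lay above all of them (3.13%, against 8.60%). The heat map of levels by library shows this pattern by role.

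**Figure D1:**
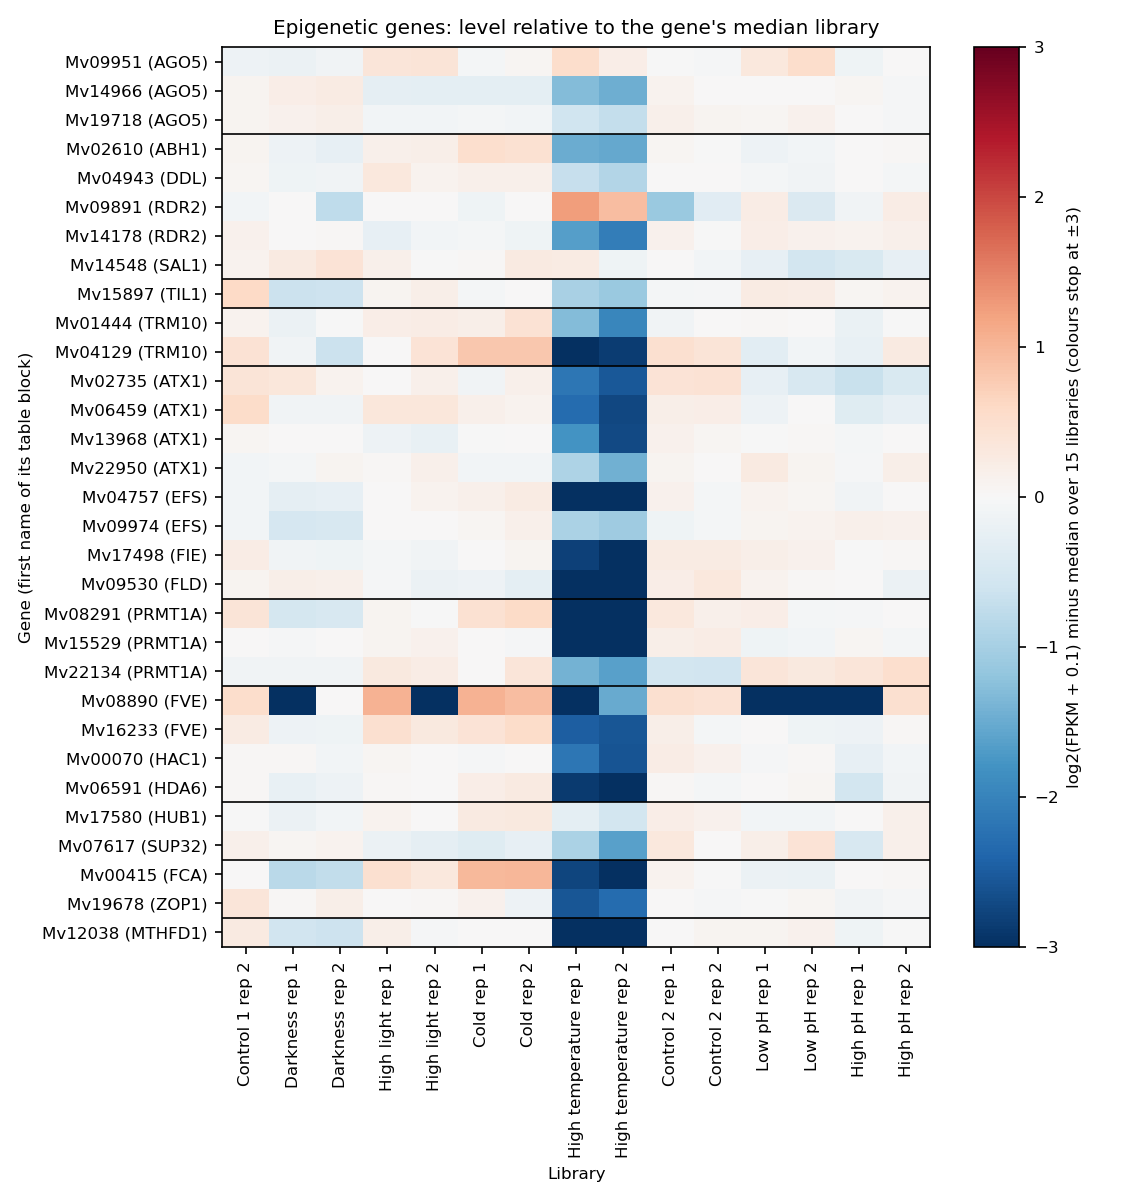
Level of 31 of the 32 epigenetic genes tested in each of the 15 libraries (columns), as log2(FPKM + 0.1) minus the gene's median over libraries, in rows grouped by role with black lines between groups; row labels give the first name of the table block. Colours away from white are concentrated in both High temperature columns, and Mv08890-RA is listed at 0 in 6 libraries.

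A gene is called below when its limma p, adjusted by Benjamini-Hochberg over all 14297 genes, was at most 0.01 and its level differed by at least 2-fold, on the log2(FPKM + 0.1) scale. That scale understates the change of genes at low FPKM. In Darkness 1 of the 32 epigenetic genes kept was called, lower, where 5.15% of all genes tested were called (4.02% lower). In High light and in Cold none was called, where 5.81% and 12% of all genes were. At High temperature 23 were called, all lower, where 62.2% of all genes were called (55.3% lower and 6.83% higher). At Low pH and High pH none was called against Control 2, where 1.57% and 2.25% of all genes were. At an unadjusted p under 0.05 the comparisons with no call held 10 genes in High light, 12 in Cold, 11 at Low pH and 12 at High pH. Of all 14297 genes tested, 6282, 7879, 4409 and 5257 had such a p, in the same order. The 95% interval of the change lay within 2-fold either way for 25 of the 32 genes in Darkness, 29 in High light, 28 in Cold, 27 at Low pH, 27 at High pH and 5 at High temperature.

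**Figure D2:**
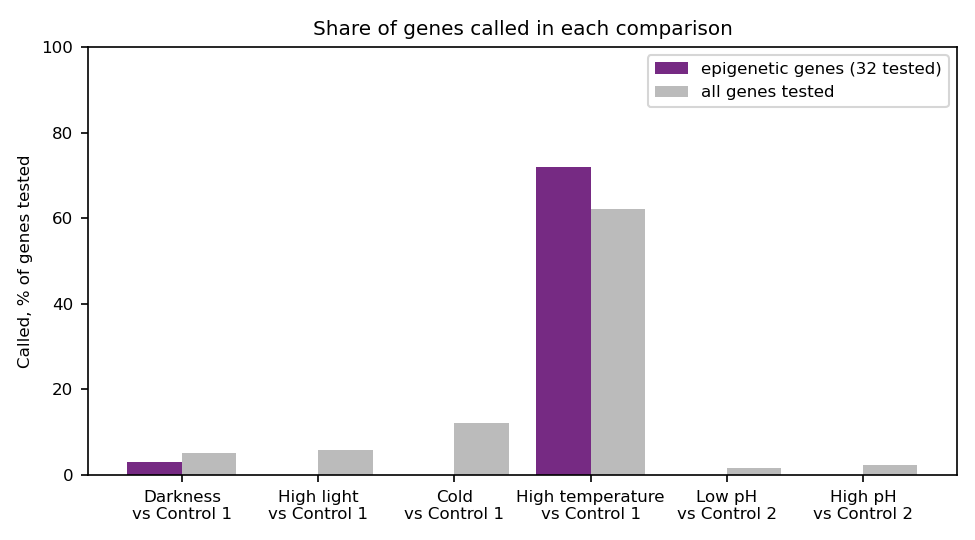
Share of genes called (adjusted p at most 0.01 and at least 2-fold), as a percent of genes tested, for the 32 epigenetic genes (purple) and all 14297 genes tested (grey) in the 6 comparisons with a control. High temperature gave the highest share in both, 71.9% and 62.2%.

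Most genes tested were lower on the FPKM scale at High temperature, so changes there are also given relative to the other genes. The median log2 fold change of all genes tested was -1.29 against Control 1, and that of the epigenetic genes was -2.14, with 23 of the 32 below the median of all genes. After the libraries were scaled by the median of gene ratios, the median of all genes was -0.04 and that of the epigenetic genes was -0.88. Then 15 epigenetic genes were called lower (46.9%, against 27.0% of all genes) and 4 higher (12.5%, against 23.3%). As above, the sets were not matched for mean level. Below, "after scaling" means this scaling unless another is named. The 13 genes of the table that were left out gave 12 called lower and 1 higher at High temperature without scaling. Of all genes tested, 55.3% were called lower and 6.83% higher there. Of these 13, 6 were called in Darkness, 4 in Cold and 6 in High light against Darkness, so the small changes of the 32 genes kept there do not describe the table as a whole. In addition, 14 genes for mitosis, listed by the study for cell division, gave 11 lower and 1 higher at High temperature without scaling. These counts are to be read beside the same 55.3% and 6.83% of all genes. The part of dividing cells in the levels of the epigenetic genes was not tested.

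**Figure D3:**
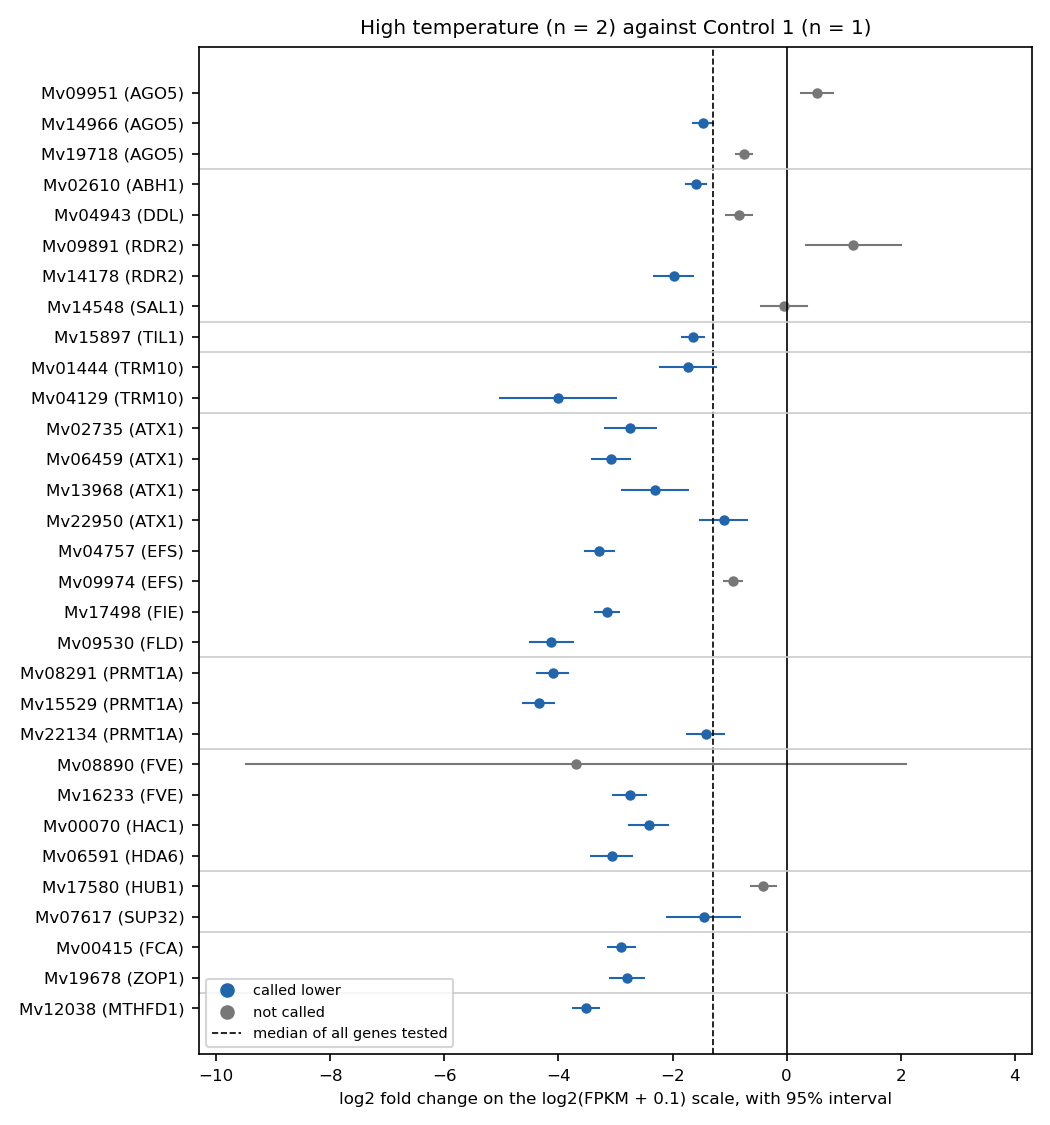
Log2 fold change of 31 of the 32 epigenetic genes tested at High temperature (2 libraries) against Control 1 (1 library), with its 95% interval from limma, in role groups separated by grey lines; the dashed line is the median of all genes tested, -1.29. 23 genes are called lower (blue), from -4.35 to -1.10, and 8 are not called (grey).

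Of the 8 genes for histone lysine methylation, 7 were called lower at High temperature, and 6 of these 7 were also called lower after scaling. Of all genes tested 55.3% were called lower, and 27.0% after scaling. The counts of the other roles below are to be read beside these same shares. They comprise 4 of the 5 genes of the block headed by ATX1, which holds trithorax-type and related methyltransferases, 2 of the 3 in the block headed by EFS/SDG8, which also holds the SUVH names, the single gene FLD, named for an LSD1-type demethylase, and FIE, named for a WD40 subunit of Polycomb repressive complex 2. FLD (Mv09530-RA) was at 4.90 FPKM in Control 1, 5.25 and 5.13 in Darkness, 4.47 and 4.07 in High light, 4.13 and 3.71 in Cold, 0.151 and 0.229 at High temperature, 5.32 and 5.76 in Control 2, 4.97 and 4.74 at Low pH, and 4.61 and 4.05 at High pH. The 13 libraries without High temperature spanned 3.71 to 5.76 FPKM, and both High temperature libraries lay below them. The log2 fold change was -4.12 (SE 0.17, adjusted p 1.17e-09) and -3.09 after scaling.

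FIE (Mv17498-RA) was at 27.1 FPKM in Control 1 and at 3.24 and 2.71 FPKM at High temperature, with the other 12 libraries at 21.2 to 27.8 FPKM. Its log2 fold change was -3.15 (SE 0.09, adjusted p 1.21e-10), and -1.85 after scaling. Both EFS/SDG8 genes kept differed in their change. Mv04757-RA dropped from 9.63 FPKM to 0.967 and 0.836 FPKM (log2 fold change -3.28, SE 0.12, adjusted p 3.79e-10). Mv09974-RA went from 20.7 FPKM in Control 1 to 11.2 and 10.3 FPKM, a log2 fold change of -0.94 (SE 0.07, adjusted p 2.57e-07) that stayed under 2-fold, and was 0.37 after scaling with no call. Within a library the ratio of Mv09974-RA to Mv04757-RA was 1.81 to 2.60 in the 13 other libraries and 11.6 and 12.3 at High temperature, a comparison that a single factor per library cannot alter.

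In the ATX1 block, Mv06459-RA, Mv02735-RA and Mv13968-RA fell at High temperature by 3.07, 2.74 and 2.30 on the log2 scale. Each was called lower after scaling by the median of gene ratios too. After quantile normalization Mv02735-RA (-0.90) and Mv13968-RA (-0.37) were no longer called. The fourth gene kept, Mv22950-RA, was at 5.43 FPKM in Control 1 and at 2.98 and 2.06 FPKM at High temperature. Its log2 fold change of -1.10 (SE 0.19, adjusted p 1.80e-04) was the smallest of the calls and was 0.18, on the other side of 0, after scaling. The call was lost without High temperature replicate 2 (-0.85).

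Mv02735-RA of the same block was also lower at both shifted pH values. It was at 4.32 and 4.43 FPKM in Control 2, 2.72 and 2.28 at Low pH, and 2.0 and 2.33 at High pH, with no overlap between Control 2 and either treatment. The log2 fold changes were -0.79 (SE 0.17, adjusted p 0.00684) and -0.99 (SE 0.17, adjusted p 0.00144), neither of them 2-fold, and without High pH replicate 2 the latter became -1.09 and was called. The groups Low pH and High pH share Control 2. In Control 1 the gene was at 4.22 FPKM, and in Darkness, High light and Cold at 3.0 to 4.11 FPKM.

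Protein arginine methyltransferases transfer methyl groups to arginines of histones and other proteins. The PRMT block held 6 *M. viride* genes, of which 3 are among the genes left out. The 3 kept were all called lower at High temperature, and 2 of them held that call after scaling. Mv15529-RA was at 6.03 FPKM in Control 1 and 0.179 and 0.225 FPKM at High temperature, with the other 12 libraries at 5.54 to 7.02 FPKM. This was the largest decrease among the 32 genes, -4.35 on the log2 scale (SE 0.12, adjusted p 7.25e-11). Mv08291-RA followed with 9.49 FPKM in Control 1 and 0.455 and 0.462 FPKM at High temperature (-4.10, SE 0.12, adjusted p 1.31e-10).

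Mv22134-RA, the third of the PRMT genes kept, took another course. It was at 7.18 FPKM in Control 1, 7.09 and 7.14 in Darkness, 9.37 and 9.0 in High light, 7.68 and 9.95 in Cold, and 2.83 and 2.43 at High temperature. Against Control 1 the log2 fold change at High temperature was -1.42 (SE 0.15, adjusted p 3.09e-06), -0.13 after scaling with no call, and -0.95 with no call when Control 2 was the reference. In the pH series it was at 5.25 and 5.09 FPKM in Control 2, 9.93 and 9.39 at Low pH, and 9.87 and 10.9 at High pH. Both pH groups lay above Control 2, at log2 fold changes of 0.89 (SE 0.12, adjusted p 3.82e-04) and 0.99 (SE 0.12, adjusted p 1.53e-04), just under 2-fold. At High pH the gene was called under 6 alternative settings, among them the fits without Control 2 replicate 1 (1.01) and without High pH replicate 1 (1.06). Control 1, at 7.18 FPKM, lay between Control 2 and the pH groups. Relative to Mv15529-RA in the same library, Mv22134-RA stood at 0.725 to 1.89 in the 13 other libraries and at 15.8 and 10.8 at High temperature. There Mv15529-RA was at 0.179 and 0.225 FPKM, low values of unknown precision, so the size of these 2 ratios is uncertain.

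Histone acetylation was represented by HAC1, named for a p300/CBP-type acetyltransferase, a deacetylase of the HDA6 block, and 2 genes under FVE, a WD40 protein found with deacetylases. 3 of the 4 were called lower at High temperature, before and after scaling by the median of gene ratios. After quantile normalization HAC1 was no longer called (-0.60). HAC1 (Mv00070-RA) was at 8.91 FPKM in Control 1 and 1.85 and 1.35 FPKM at High temperature (log2 fold change -2.42, SE 0.15, adjusted p 4.31e-08), and at 7.30 to 10.1 FPKM in the other 12 libraries. The deacetylase Mv06591-RA moved from 16.6 FPKM to 2.1 and 1.71 FPKM (-3.06, SE 0.16, adjusted p 8.90e-09), and FVE gene Mv16233-RA from 12.8 FPKM to 1.88 and 1.74 FPKM (-2.75, SE 0.13, adjusted p 4.12e-09). An acetyltransferase and a deacetylase were thus lower in the same libraries.

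The other FVE gene, Mv08890-RA, could not be compared. It was listed at 3.92 FPKM in Control 1, 0 and 2.68 in Darkness, 5.61 and 0 in High light, 5.66 and 5.18 in Cold, 0 and 0.869 at High temperature, 3.77 and 3.67 in Control 2, 0 and 0 at Low pH, and 0 and 3.76 at High pH. Replicates of Darkness, High light, High temperature and High pH each had 1 library at 0, and whether a 0 there is a failed estimate was not tested. The 95% interval of its log2 fold change at High temperature, from -9.47 to 2.08, takes in both directions, and nothing is read from the fitted value drawn in the plot of High temperature changes.

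Ubiquitin on histone H2B is a mark of transcribed chromatin. The ubiquitin ligase gene of the HUB block (Mv17580-RA) stood at 35.4 FPKM in Control 1 and 29.1 and 24.5 FPKM at High temperature, a log2 fold change of -0.41 (SE 0.10, adjusted p 0.00268) that was 0.91 after scaling, neither of them called. UBP26 (Mv07617-RA), named for a deubiquitinase of H2B, was called lower, from 7.11 FPKM to 3.24 and 1.97 FPKM (-1.45, SE 0.29, adjusted p 6.34e-04), but not after scaling (-0.17).

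**Figure D4:**
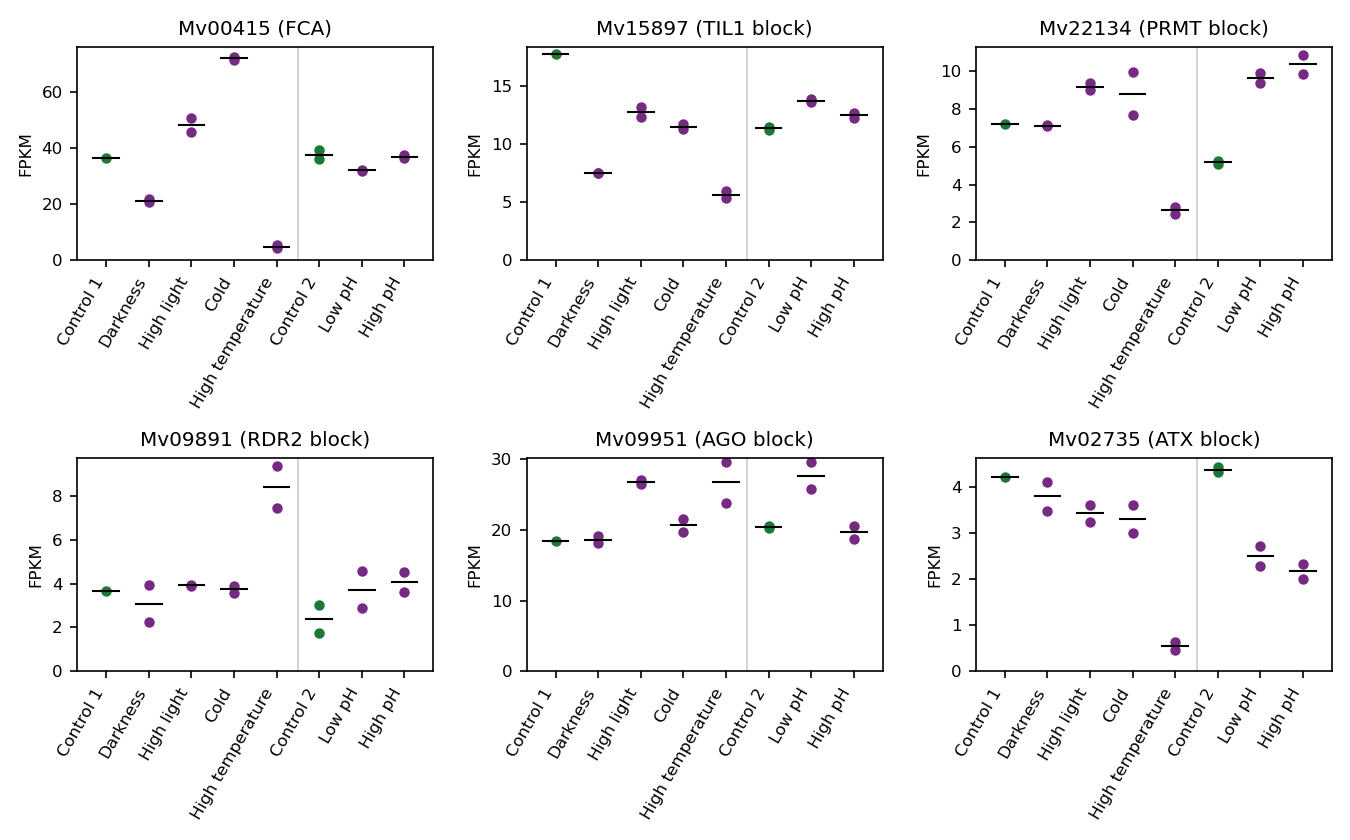
FPKM of 6 epigenetic genes in every library (points) with the mean of each condition (bar); untreated controls are green, treatments purple, and the vertical line separates the conditions compared with Control 1 from those compared with Control 2. Mv00415-RA is highest in Cold, at 71.7 and 72.8, and Mv15897-RA is highest in the single Control 1 library, at 17.7.

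Of the 3 Argonaute genes tested, 1 was called lower at High temperature. Mv14966-RA was at 34.5 FPKM in Control 1 and 13.2 and 11.7 FPKM at High temperature (log2 fold change -1.46, SE 0.08, adjusted p 1.33e-08), which was -0.15 after scaling with no call. Mv19718-RA, the highest of the group at 48.7 FPKM in Control 1, was at 30.1 and 27.9 FPKM (-0.75, SE 0.06, adjusted p 5.63e-07), and 0.57 after scaling, neither of them called.

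Mv09951-RA was the exception among the Argonaute genes. It was at 18.4 FPKM in Control 1, 18.2 and 19.1 in Darkness, 26.5 and 27.1 in High light, 19.7 and 21.6 in Cold, 29.6 and 23.9 at High temperature, 20.6 and 20.2 in Control 2, 25.8 and 29.6 at Low pH, and 18.8 and 20.6 at High pH. High light, High temperature and Low pH thus lay above the remaining conditions. The log2 fold changes were 0.54 in High light (SE 0.13, adjusted p 0.00825), 0.52 at High temperature (SE 0.13, adjusted p 0.00242) and 0.44 at Low pH (SE 0.10, adjusted p 0.0125), none of them 2-fold. After scaling, High temperature gave 1.84 and the gene was called higher. Its ratio to Mv14966-RA within a library was 0.490 to 1.02 in the 13 other libraries and 2.24 and 2.03 at High temperature.

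Of the 5 other small RNA genes tested, 2 were called lower at High temperature, and neither was called lower after scaling. With the upper quartile as the scaling, 1 of the 2, Mv14178-RA, stayed called lower. CBP80 (Mv02610-RA), named for the large subunit of the nuclear cap-binding complex that takes part in microRNA processing, was at 12.9 FPKM in Control 1, 17.4 and 16.6 in Cold, and 4.28 and 4.14 at High temperature. Its log2 fold changes were 0.40 in Cold (SE 0.08, adjusted p 0.00239, not called) and -1.59 at High temperature (SE 0.08, adjusted p 7.68e-09). DDL (Mv04943-RA), a forkhead-associated domain protein of microRNA biogenesis in Arabidopsis, had -0.84, and SAL1 (Mv14548-RA), a phosphatase that removes an inhibitor of exoribonucleases, had -0.05. Neither was called. SAL1 was at 10.0 FPKM in Control 1 and 11.1 and 8.49 FPKM at High temperature, and after scaling it was called higher at 1.26.

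The RDR2/SMD1 block, whose name stands for an RNA-dependent RNA polymerase, held genes that went opposite ways. Mv14178-RA was at 7.95 FPKM in Control 1 and 2.26 and 1.66 FPKM at High temperature (log2 fold change -1.98, SE 0.15, adjusted p 2.48e-07). Mv09891-RA was at 3.66 FPKM in Control 1, 3.94 and 2.25 in Darkness, 3.95 and 3.90 in High light, 3.57 and 3.92 in Cold, and 9.37 and 7.44 at High temperature. In the pH series it was at 1.75 and 3.04 FPKM in Control 2, 4.56 and 2.87 at Low pH, and 3.62 and 4.55 at High pH. It was the 1 epigenetic gene above all other libraries in both High temperature libraries. Against Control 1 the log2 fold change was 1.17 (SE 0.38, adjusted p 0.0133) and missed the threshold, while after scaling it was 2.47 and the gene was called higher. Its ratio to Mv14178-RA within a library was 0.219 to 0.639 in the 13 other libraries and 4.14 and 4.48 at High temperature.

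The gene of the TIL1 block (Mv15897-RA), named for the catalytic subunit of DNA polymerase epsilon, a replicative polymerase, was the 1 epigenetic gene called in Darkness. It was at 17.7 FPKM in Control 1, 7.49 and 7.52 in Darkness, 12.3 and 13.2 in High light, 11.3 and 11.7 in Cold, 5.92 and 5.34 at High temperature, 11.2 and 11.5 in Control 2, 13.8 and 13.6 at Low pH, and 12.2 and 12.7 at High pH. The single Control 1 library was the highest of all 15. Darkness gave a log2 fold change of -1.23 (SE 0.09, adjusted p 2.19e-06), and High temperature -1.64 (SE 0.09, adjusted p 1.02e-08), or -0.33 after scaling with no call. Control 2 itself lay below Control 1, at -0.64 (SE 0.09, adjusted p 7.35e-04), though no epigenetic gene was called between the controls (3.39% of all genes were). Between the controls 5 of the 32 epigenetic genes had an unadjusted p under 0.05, as did 3501 of the 14297 genes tested. With Control 2 as the reference the Darkness change was -0.59 and that at High temperature -0.997, and neither was called. Of the 14 genes for mitosis, 4 were called lower in Darkness, 3 in High light and 6 in Cold. Of all genes tested, 4.02%, 2.26% and 8.28% were called lower there. In High light and in Cold 1 gene for mitosis was also called higher. Mv15897-RA was called in neither of these 2 conditions, but it was lower than Control 1 in both, at log2 fold changes of -0.47 and -0.62. The part of the genes for mitosis in its levels was not tested.

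The single gene for MTHFD1 (Mv12038-RA), a folate enzyme that in Arabidopsis feeds the methyl donor for DNA and histone methylation, was at 40.0 FPKM in Control 1, 22.4 and 21.5 in Darkness, and 3.58 and 3.23 at High temperature. The other 10 libraries were at 30.3 to 37.7 FPKM, so Darkness and High temperature both lay below that range. Its log2 fold change was -0.86 in Darkness (SE 0.10, adjusted p 7.59e-05, under 2-fold) and -3.52 at High temperature (SE 0.10, adjusted p 7.92e-11), or -2.22 after scaling and still called.

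In Darkness, 6 epigenetic genes had an adjusted p of at most 0.01 at any size of change, all of them lower, where 18.7% of all genes tested did (13.9% lower). Besides TIL1, MTHFD1 and FCA they were the arginine methyltransferase gene Mv08291-RA (-0.89) and the lysine methyltransferase genes Mv06459-RA (-0.67) and Mv09974-RA (-0.43). All 6 were compared with the same single Control 1 library. The same limit on adjusted p, at any size of change, held 4 epigenetic genes in High light, 5 in Cold, 3 at Low pH and 3 at High pH. Of all 14297 genes tested it held 2733, 4857, 1669 and 2230, in the same order.

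FCA (Mv00415-RA), named for an RNA-binding protein of transcript 3' end formation and silencing in Arabidopsis, varied most clearly with light and temperature. It was at 36.5 FPKM in Control 1, 20.8 and 21.8 in Darkness, 50.7 and 45.7 in High light, 71.7 and 72.8 in Cold, and 5.30 and 4.36 at High temperature. In the pH series it was at 39.3 and 36.1 FPKM in Control 2, 32.4 and 31.9 at Low pH, and 36.6 and 37.4 at High pH. The order of the conditions with a light or temperature change was Cold, High light, Control 1, Darkness and High temperature, with no overlap between neighbours, although the difference of High light from Control 1 missed the threshold (log2 fold change 0.40, SE 0.11, adjusted p 0.0161).

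Cold gave FCA a log2 fold change of 0.98 (95% interval 0.75 to 1.22, adjusted p 3.08e-05), just under 2-fold, and the gene was called higher after scaling (1.19). Darkness gave -0.78 (SE 0.11, adjusted p 2.66e-04). High light against Darkness, which needs no control, gave 1.18 (SE 0.09, adjusted p 6.96e-07), and 0.98 with the call lost after quantile normalization. FCA was the 1 epigenetic gene called in that comparison, where 13.7% of all genes were called (8.17% higher). In all, 13 epigenetic genes had an adjusted p of at most 0.01 between High light and Darkness, where 42.3% of all genes tested did. 10 were higher in High light and 3 lower (21.1% and 21.2% of all genes), the latter including the Argonaute genes Mv14966-RA (-0.50) and Mv19718-RA (-0.23). ZOP1 (Mv19678-RA), named for a splicing factor that takes part in RNA-directed DNA methylation, was called lower at High temperature like FCA, at -2.80 (SE 0.14, adjusted p 5.06e-09) and -2.90 (SE 0.11, adjusted p 5.11e-10).

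Both tested genes of the tRNA modification block headed by TRM10 were called lower at High temperature. Mv04129-RA was at 6.48 FPKM in Control 1 and 0.147 and 0.578 FPKM at High temperature (log2 fold change -4.01, SE 0.46, adjusted p 7.92e-06), or -2.90 after scaling and still called. Mv01444-RA was at 6.19 FPKM in Control 1 and 2.28 and 1.40 FPKM (-1.73, SE 0.22, adjusted p 1.97e-05), or -0.46 after scaling with no call. The fold change of Mv04129-RA has a wide interval, from -5.03 to -2.98.

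Read by role after scaling, the genes called lower at High temperature were 6 of 8 for histone lysine methylation, 3 of 4 for histone acetylation, 2 of 3 for arginine methylation, 2 of 2 for RNA processing and silencing, 1 of 2 for tRNA modification and the MTHFD1 gene, where 27.0% of all genes tested were called lower and 23.3% higher after the same scaling. None of the 3 Argonaute genes, the 5 other small RNA genes, the ligase and deubiquitinase genes for ubiquitination or the TIL1 block gene was called lower. The genes called higher included Mv09951-RA of the Argonaute genes and Mv14548-RA and Mv09891-RA of the other small RNA genes. This split depends on the scaling. With the upper quartile, the small RNA gene Mv14178-RA stayed called lower. With quantile normalization, Mv00070-RA, Mv02735-RA and Mv13968-RA of the histone groups were not called. The call of Mv14548-RA as higher was made only with the median of gene ratios. The groups hold few genes and no test of a difference between them was made.

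The direct comparison of High temperature with Cold gave 23 genes called lower and 1 higher, where 58.6% of all genes were called (50.7% lower and 7.85% higher). The median log2 fold change was -2.11 for the epigenetic genes and -1.07 for all genes. FCA had a log2 fold change of -3.88 (SE 0.09, adjusted p 9.69e-12), from 71.7 and 72.8 FPKM in Cold to 5.30 and 4.36 FPKM. The gene called higher was Mv09891-RA (1.14, SE 0.31, adjusted p 0.00480), and this call was lost without Cold replicate 1 (1.07), without Cold replicate 2 (1.20) and without High temperature replicate 1 (0.98). Those of Mv15897-RA (-1.02), Mv14966-RA (-1.08) and Mv22950-RA (-1.10) were lost without High temperature replicate 2, at -0.95, -0.99 and -0.85, and that of Mv15897-RA also without Cold replicate 2 (-0.99). Without High temperature replicate 1, Mv04943-RA (-1.04) and Mv07617-RA (-1.33) were called lower, and Mv07617-RA was also called without Cold replicate 1 (-1.05).

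Between High pH and Low pH none of the 32 genes was called, where 0.804% of all genes were. In that comparison 3 of the 32 had an unadjusted p under 0.05, as did 3256 of the 14297 genes tested. The 95% interval lay within 2-fold for 30 of the 32, the exceptions being Mv04129-RA and Mv08890-RA. Among those 3 was the Argonaute gene Mv09951-RA, at 25.8 and 29.6 FPKM at Low pH and 18.8 and 20.6 FPKM at High pH (log2 fold change -0.49, SE 0.10, adjusted p 0.0139).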

How the data were processed

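Per the labels, RNA was selected for poly(A), freed of rRNA, and sequenced paired-end from stranded libraries. Per the study's methods the authors used Hisat2 for mapping and Cufflinks, at default settings, for FPKM, the unit deposited for each gene. Fragment numbers are unknown, and the spacing of values under 0.3 FPKM gave no single relative depth for 6 of 14 libraries, so the precision of low values is not known.

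On the log2(FPKM + 0.1) scale, genes reaching 0.5 FPKM in 2 or more libraries entered a linear model (limma 3.58.1, R 4.3.3) of all 15 libraries. Each condition had its own mean, 7 residual degrees of freedom remained, and the variance prior followed mean level. Control 1, with 1 library, was taken to vary as the replicated conditions do. The procedure was tested on simulated data. The replicate numbers did not pair the libraries.

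The members, lists and roles were chosen with earlier results of these data known. Named with values, among the genes reported, are those called outside High temperature, the highest and lowest change in each role at High temperature, genes called higher there and genes not tested. Other genes, and the pairs set in ratio, were named after their values were seen. The plan counted 37 genes, of which 32 could be tested. Alternatives were the pseudocount (1 or 0.01), the minimum (none or 1 FPKM), an FDR of 0.05, 3 scalings, the replicate block, a robust prior, the reference, the samples fitted, and leaving out each library. The values of 1 tested gene are not reported here, and it is part of the counts only, so a role need not be shown with its highest change.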

Additional observations from a re-analysis of the deposited data

How the results depend on the processing

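In each comparison, gene and setting pairs were counted only for genes called in the main fit or under an alternative. Most pairs thus come from the comparisons with High temperature. Of these pairs, 827 stayed on their side of the threshold, 66 lost a call and 32 gained one. Another 11 changed sign while called before or after the change of setting. The count of epigenetic genes called in Darkness was 0 with Control 2 as reference or with both controls together, against 1. In Cold it was 1 after scaling by the median of gene ratios or the upper quartile, against 0. At High temperature against Control 1 quantile normalization gave 14, against 23, and against Cold 13, against 24. At Low pH it was 1 when only the groups compared were fitted (Mv08890-RA, listed at 0 in both treated libraries). At High pH it was 2 with a pseudocount of 0.01 and 1 after each of the 3 scalings. High light against Darkness gave 0 after quantile normalization, against 1. With 1 library left out at a time the count was 22 to 23 at High temperature, 21 to 25 at High temperature against Cold, 0 to 1 at High pH, 1 in Darkness and in High light against Darkness, and 0 in the other comparisons. Control 1 has 1 library and could not be left out.

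The scalings moved the split at High temperature against Control 1 from 0 higher and 23 lower to 4 and 15 (median of gene ratios), 3 and 16 (upper quartile) and 2 and 12 (quantile), and against Cold from 1 and 23 to 4 and 15, 3 and 17, and 2 and 11. The log2 fold changes that changed sign with such a call against Control 1 were, under quantile normalization, those of Mv01444-RA (0.10), Mv07617-RA (0.21), Mv22134-RA (0.22) and Mv22950-RA (0.61), and, under the median of gene ratios, those of Mv14548-RA (1.26) and Mv22950-RA (0.18). Against Cold they were those of Mv14548-RA (1.02), Mv14966-RA (0.031) and Mv15897-RA (0.082) under the median of gene ratios, and of Mv15897-RA (0.052) and Mv22950-RA (0.27) under quantile normalization. Sign changes with no call on either side were also seen under scaling, for Mv04943-RA, Mv17580-RA, Mv19718-RA and Mv09974-RA against Control 1 among others. Fitted with the 2 groups compared alone, the calls of Mv01444-RA, Mv07617-RA, Mv13968-RA, Mv22134-RA and Mv22950-RA against Control 1 were lost. Each scaling raises both High temperature libraries relative to the rest.

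With the replicate number as a block the counts were the same, 23 at High temperature and 24 against Cold. Deviations of same-numbered libraries correlated at -0.08 to 0.07 over 21 pairs of conditions, so the numbers do not pair the libraries. A fit without both High temperature libraries, added after the data had been seen, changed no count in the comparisons that could be made. The single Control 1 library limits every comparison with it, and unknown fragment numbers limit genes at low FPKM.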
